A study of Homo sapiens with 40 samples.

Results

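The transcriptome of control HepaRG cultures was described from the 5 libraries labelled Control in the PCB 126 table, out of 40 libraries in the series. They were chosen by their treatment label alone and no measured value entered the choice. HepaRG, a line of human liver cells, is supplied differentiated as a mixture of hepatocyte-like cells and flat cells with primitive biliary features. It is 1 line from 1 tumour, so nothing here varies between donors. The cultures were kept in a test medium with 2% fetal bovine serum and 1% DMSO from day 8 to day 14 and the control cultures received the solvent only. The 3 exposed groups of the same table received PCB 126, a dioxin-like polychlorinated biphenyl, at 100 pM, 10 nM or 1 µM in the same medium, with 5 libraries each. The glyphosate and Roundup groups were not analysed here. The labels do not say whether the 5 control libraries came from separate cultures, so the spread between them may be technical, and p-values measure only the spread between these libraries. The control libraries are called replicates 1 to 5 in accession order.

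Hepatocytes make most of the proteins of blood plasma, clear drugs with cytochrome P450 enzymes, and handle urea, sugar and bile acids. Cholangiocytes line the bile ducts and are recognised by keratins such as KRT19 and KRT7, by surface proteins such as EPCAM and by transcription factors such as SOX9. Both arise from the same fetal progenitor, and HepaRG cells can form either kind. In bulk RNA, fewer cells of a type and less RNA per cell cannot be told apart.

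Values are FPKM, that is fragments relative to the length of the transcript and to all mapped fragments of the library, summed over the transcripts that share a gene name, with 4 values below 0 in the table set to 0. Summed FPKM ranged from 299809 in control replicate 5 to 471687 in control replicate 1, and 26802 to 31601 gene names were above 0 in a library. Transcripts without a gene name, ribosomal RNA loci included, held 12.6% to 16.6% of the FPKM in replicates 1 to 4 and 23.5% in replicate 5. Ribosomal RNA loci held 4.92% to 14.3% of FPKM weighted by transcript length in replicates 1 to 4 and 32.6% in replicate 5. The deposited values carry no read counts. If the commonest step of single-exon transcripts, which 13.7% to 17.1% of their values matched within 2%, is taken as 1 fragment, the control libraries held about 13100000 to 17100000 fragments each. Control replicate 5 thus stood apart in composition, and results that rest on it are given with and without it.

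Of the 5 marker genes 4 were detected in all 5 libraries and EPCAM was not. ALB, which encodes serum albumin (GRCh38 chr4:73404239-73421412), was listed at 10770.5, 12241, 10883, 12989 and 9144 FPKM in replicates 1 to 5. APOA1, the main protein of high density lipoprotein (chr11:116835751-116837950), was at 707, 1203, 1058, 1193 and 881 FPKM. KRT19, the biliary keratin (chr17:41523617-41528308), was at 309, 378, 391, 249 and 189 FPKM. These 3 genes were abundant in each library, with means of 11206 ± 1483, 1008 ± 213 and 303 ± 85.6 FPKM (SD, n = 5) and ranks of 5, 20 and 73 among all gene names. CYP3A4, the main drug-metabolising P450 of adult liver (chr7:99757676-99784265), was far lower at 1.37, 3.21, 6.95, 2.17 and 1.69 FPKM (mean 3.08 ± 2.27, SD, n = 5) and rank 9075, with replicate 3 well above the other libraries. EPCAM, an adhesion molecule of bile duct and progenitor epithelium (chr2:47369148-47387034), was listed at 0 in 4 libraries and at 0.0401 FPKM in replicate 2. EPCAM was thus not seen in these cultures by its own row, while KRT19 was among their most abundant messages. As this table also lists genes that every cell uses at 0, the values do not show that EPCAM was absent. CYP3A4 shares sequence with CYP3A5 and CYP3A7, which averaged 5.94 and 1.31 FPKM, and how the assembly split fragments between them is uncertain.

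The albumin promoter is the classic liver promoter and is shown because ALB was the highest coding gene. The sequence runs from 250 bases before to 50 bases after the RefSeq start site, on the plus strand at chr4:73404037-73404336 (GRCh38.p14). Capitals mark 1 match to GTTAAT, the half-site of HNF1 factors, and 4 matches to TTNNGNAA, the letters bound by C/EBP factors.
ALB: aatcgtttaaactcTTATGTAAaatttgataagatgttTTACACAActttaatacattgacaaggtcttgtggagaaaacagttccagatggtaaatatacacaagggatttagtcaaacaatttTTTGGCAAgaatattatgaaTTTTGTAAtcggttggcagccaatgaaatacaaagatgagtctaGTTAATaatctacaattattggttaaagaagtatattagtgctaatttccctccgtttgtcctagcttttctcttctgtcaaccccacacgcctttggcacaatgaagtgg
Searched on both strands, GTTAAT occurs in 6.88% and TTNNGNAA in 36.8% of 35116 RefSeq promoters of this length, so the C/EBP letters alone are common. A match is a description of letters and not of binding.

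**Figure D1:**
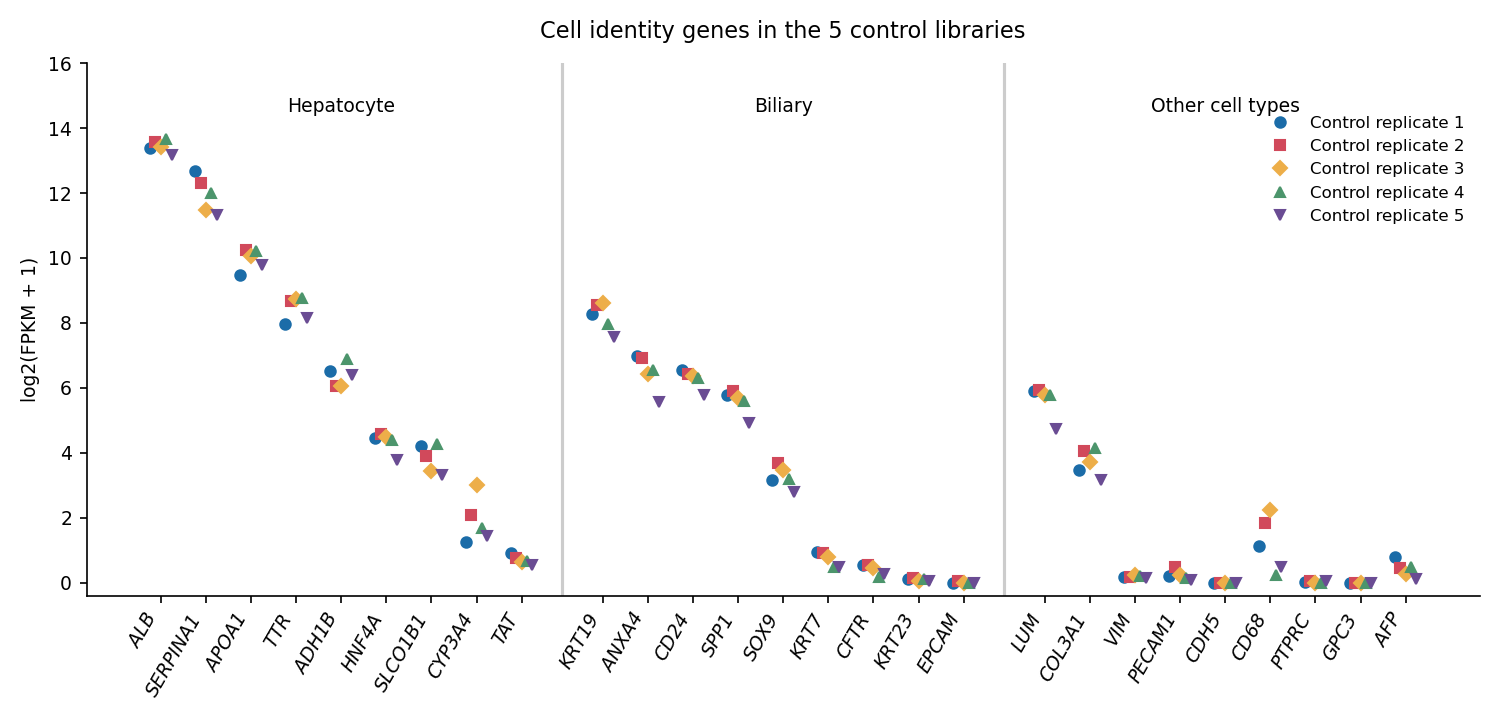
Level of hepatocyte, biliary and other cell identity genes in the 5 control libraries, as log2(FPKM + 1) on the vertical axis with 1 symbol per library. ALB lies highest, KRT19 lies far above KRT7, CYP3A4 stays low in each library, and EPCAM, at 0 to 0.0401 FPKM, sits on the zero line.

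A small number of genes held much of the FPKM. The 10 highest gene names took 42.2% ± 1.98 (SD, n = 5) of all named FPKM, the 100 highest 56.0% ± 2.07, and the 1000 highest 74.2% ± 1.53. In each library 1 gene alone took 11% to 14.1%. Across all 5 libraries 10224 gene names were at 1 FPKM or more, 2156 at 10 or more, 147 at 100 or more and 15 at 1000 or more, while 18865 of 56568 names were listed at 0 in all 5.

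The very highest entries were short non-coding RNAs of the basic cell machinery and not liver genes. RN7SK, the 7SK RNA that holds back transcription elongation, was at 45420, 51226, 50116, 38439 and 27659 FPKM. AL139099.5 and RN7SL2, both forms of the 7SL RNA of the signal recognition particle that guides secreted proteins to the endoplasmic reticulum, averaged 30180 and 24786 FPKM. RPPH1, the RNA of RNase P that trims transfer RNAs, averaged 14998 ± 3207 FPKM and RMRP, the RNA of the related RNase MRP, 8533 ± 1949 FPKM (SD, n = 5). Structural and small RNAs together made up 30.8% to 33.6% of all FPKM but only 4.83% to 6.00% when each FPKM was weighted by transcript length, since a short transcript needs few fragments for a high FPKM. RN7SL4P, RN7SL5P and RN7SKP203, pseudogene names of the same families, averaged 4573, 2117 and 1176 FPKM, and fragments shared among these copies make each single level uncertain.

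RN7SL1, the reference 7SL gene, was listed at 0 in all 5 libraries although AL139099.5, the second highest entry, overlaps it almost entirely and differs from it by 1 edit. The level of RN7SL1 therefore cannot be read from its own row.

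**Figure D2:**
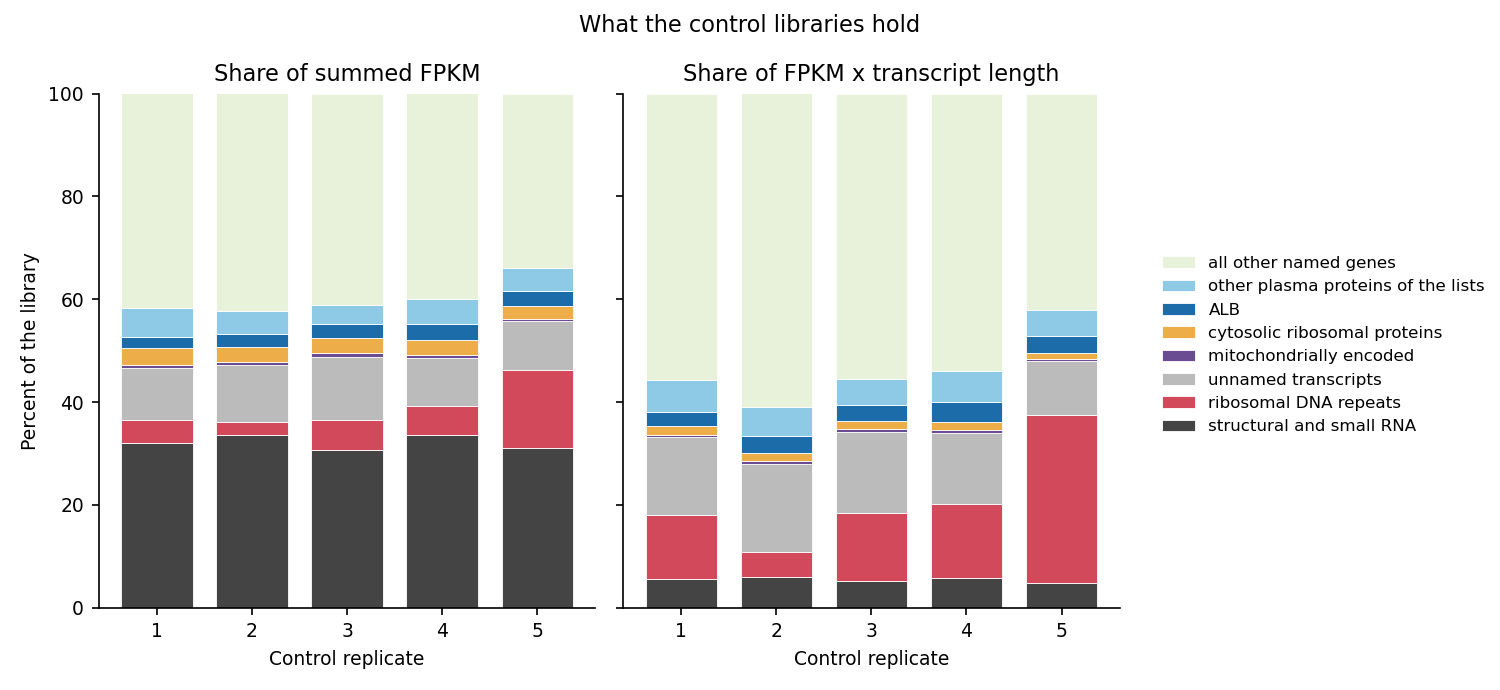
Share of each control library, in percent, held by groups of transcripts, by FPKM in one panel and by FPKM weighted with transcript length in the other, with 1 stacked bar per replicate. Structural and small RNAs fill 30.8% to 33.6% of a bar by FPKM and 4.83% to 6.00% by length-weighted FPKM, and ribosomal DNA repeats fill 15.2% of the bar of replicate 5 by FPKM and 32.6% by length-weighted FPKM, the largest share among the 5 libraries.

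Among protein-coding genes the top of the list was mostly exported plasma proteins. ALB alone took 2.28% to 3.19% of all FPKM and the other listed plasma proteins 3.86% to 5.66%, beside 2.38% to 3.24% for ribosomal proteins. SERPINA1, alpha-1-antitrypsin, was at 6498, 5049, 2823, 4137 and 2545 FPKM. FGA, FGB and FGG, the 3 chains of fibrinogen, averaged 2249 ± 908, 1559 ± 477 and 1667 ± 572 FPKM (SD, n = 5). FTL and FTH1, the chains of the iron store ferritin, averaged 3784 ± 806 and 1247 ± 480 FPKM, and EEF1A1, a translation factor of all cells, 1791. The next coding genes included the lipid carrier APOE at a mean of 921 FPKM, the retinol carrier RBP4 at 803, AMBP at 754, VTN at 693 and the vitamin D carrier GC at 603. CES1, an ester-cleaving enzyme of the hepatocyte, averaged 896 FPKM and was the highest metabolic enzyme among these names.

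All 19 secreted hepatocyte proteins on the list were detected at a mean of 1 FPKM or more, with a median of means of 693 FPKM against 0.0576 over all gene names. The spread within the list was wide, from ALB down to APOA2, a second protein of high density lipoprotein, at 20.8, 43.6, 39.6, 35.9 and 39.3 FPKM. TTR, the thyroid hormone carrier, averaged 361 ± 86.4 and TF, the iron carrier transferrin, 454 ± 109 FPKM (SD, n = 5). AHSG, also an abundant plasma protein of adult liver, was lower at a mean of 40.2 ± 7.24 FPKM.

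Metabolic enzymes were present but much lower than the export genes. Of 23 enzymes 20 had a mean of 1 FPKM or more, with a median of means of 9.77 FPKM. ADH1B, an alcohol dehydrogenase, was at 90.8, 65.5, 65.4, 116 and 82.2 FPKM, and the bile acid conjugating enzyme BAAT at a mean of 42.2. Among the P450 enzymes CYP2C8 and CYP2E1 averaged 31.3 ± 7.13 and 20.9 ± 5.26 FPKM (SD, n = 5). CYP2B6, CYP7A1 and CYP1A2 stood near 1 FPKM, at means of 1.85, 1.26 and 0.982. The urea cycle genes CPS1, OTC and ARG1 averaged 6.64, 3.28 and 2.54 FPKM. TAT, a tyrosine-degrading enzyme of the mature liver, averaged 0.628 and PCK1, the gate of gluconeogenesis, 0.155 FPKM.

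Transporters split in the same manner. ABCC2, which exports conjugates into bile, was at 35.7, 41.4, 34.6, 33.7 and 21.3 FPKM, and ASGR1, a subunit of the asialoglycoprotein receptor, averaged 27.5 ± 6.02 FPKM (SD, n = 5). SLCO1B1, an uptake carrier for drugs and bile acids, averaged 13.7 ± 4.21 FPKM. The main bile acid carriers of the hepatocyte were low: SLC10A1 averaged 0.573 and the bile salt export pump ABCB11 0.0921 FPKM. Of 11 transporters and receptors 8 had a mean of 1 FPKM or more, with a median of 4.81.

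Hepatocyte transcription factors were detected at moderate levels, 13 of 14 at a mean of 1 FPKM or more and with a median of 7.08. HNF4A, the central regulator of hepatocyte genes, was at 21, 22.7, 21.4, 19.9 and 12.7 FPKM. CEBPA, PROX1 and FOXA3 averaged 14.7 ± 2.76, 12.7 ± 3.79 and 11.2 ± 2.05 FPKM (SD, n = 5). The 2 receptors that switch on drug metabolism, NR1I2 and NR1I3 (PXR and CAR), averaged 1.39 and 0.400 FPKM.

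The biliary genes were uneven, some as abundant as hepatocyte enzymes and others near 0. Of 30 listed biliary genes 16 had a mean of 1 FPKM or more. Beside KRT19, the surface protein CD24 was at 93.3, 84.3, 81.9, 77.6 and 54.3 FPKM, and ANXA4, a calcium-dependent membrane protein, averaged 93.8 ± 31.8 FPKM (SD, n = 5). SLC4A2, the chloride-bicarbonate exchanger, averaged 50.5 ± 15.5 FPKM and SPP1, osteopontin, 47.8 ± 11.3. In contrast KRT7, the other keratin of bile ducts, was at 0.907, 0.893, 0.737, 0.387 and 0.390 FPKM. Of 12 keratin and surface genes 4 were at 0.1 FPKM or less in all 5 libraries, among them EPCAM, ST14 and KRT23, and only 5 of the 12 had a mean of 1 FPKM or more. CFTR and AQP1, the chloride and water channels of bile duct epithelium, averaged 0.321 and 0.206 FPKM.

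The list of biliary transcription factors and signalling genes was the better represented group. It holds SPP1, LCN2 and TFF3 beside regulators such as SOX9. Of 11 factors and signalling genes 9 had a mean of 1 FPKM or more, with a median of 23.4 FPKM. SOX9 was at 7.99, 11.8, 10.0, 8.08 and 5.90 FPKM. The receptor NOTCH2 averaged 33.5 ± 9.12, its ligand JAG1 16.3 ± 4.40, and YAP1 with its target CYR61 23.4 ± 6.42 and 38.7 ± 14.4 FPKM (SD, n = 5). LCN2, lipocalin 2, was on this list but was set by 1 library, as described below.

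How strongly the hepatocyte side outweighed the biliary side depended on the export genes. Summed hepatocyte FPKM was 29.1 to 44.5 times summed biliary FPKM, a log2 ratio of 5.17 ± 0.28 (SD, n = 5). Without the 19 secreted proteins the sums were of like size, at 0.688 to 1.16 times. Here only the hepatocyte side lost its highest genes. The biliary sum of 464 to 961 FPKM kept KRT19, at 189 to 391 FPKM. ALB was 27.9 to 52.1 times KRT19, whereas CYP3A4 was 0.00443 to 0.0178 times KRT19. The ratios of sums were highest in replicates 4 and 5, so the library with the lowest totals did not have the lowest ratio.

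Markers of other cell types and states were checked as well. Of 9 endothelial genes only KDR, at a mean of 2.27 FPKM, reached 1 FPKM, CDH5 and CLEC4G were listed at 0 in all 5 libraries, and the 9 summed to 0.943 to 5.28 FPKM. Of 11 macrophage and leukocyte genes CD14 (3.05) and CD68 (1.60) reached a mean of 1 FPKM, C1QA and C1QB were listed at 0, and the list summed to 2.35 to 7.57 FPKM. At 0.1 FPKM or less in all 5 libraries were 6 of the 9 endothelial and 7 of the 11 macrophage and leukocyte genes. Stellate and fibroblast genes were mixed. LUM, a matrix proteoglycan, averaged 50.2 ± 14.0 FPKM and COL3A1 12.5 ± 3.63 (SD, n = 5), while VIM averaged 0.137 and COL1A2 was listed at 0 in 4 libraries. Of 14 such genes 7 had a mean of 1 FPKM or more.

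Of 7 fetal liver and progenitor genes 2 had a mean of 1 FPKM or more. AFP, alpha-fetoprotein, was at 0.741, 0.360, 0.190, 0.388 and 0.0858 FPKM, and GPC3 and DLK1 were listed at 0 in all 5 libraries. PEG10, an imprinted gene of placenta and fetal liver, was at 104, 164, 152, 102 and 65.3 FPKM, and LIN28B, an RNA-binding protein of fetal and stem cells, averaged 2.10. Of 12 proliferation genes 11 had a mean of 1 FPKM or more. TYMS and RRM2, which supply nucleotides for DNA synthesis, averaged 37.7 ± 13.2 and 37.4 ± 15.6 FPKM, TOP2A 24.3 ± 8.18 and MKI67 10.7 ± 3.24 FPKM (SD, n = 5).

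The 5 libraries were alike in rank order but not in total. Over 12730 genes with a mean of 1 FPKM or more, pairs of control libraries had a Pearson correlation of log2(FPKM + 1) of 0.931 to 0.942 and a Spearman correlation of 0.914 to 0.929, across genes that are not independent. The median SD of log2(FPKM + 1) was 0.40 per gene, and 0.23 after each library was scaled to the same 75th percentile or when replicate 5 was left out. By Dixon's test for 1 value far from the other 4, replicate 5 was low in 913 of 7015 genes with a mean of 5 FPKM or more, and no other library was high or low in more than 7. After 75th percentile scaling replicate 5 was still low in 246 genes, where replicates 1 to 4 were each low in 36 to 53 and high in 7 to 50.

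Some abundant liver genes varied little between libraries and others varied much. ALB had an SD of 0.20 on the log2 scale and was one of the 10 steadiest genes at 50 FPKM or more, together with SERPINF2, SERPINA7, APOE, TM4SF4, UGT2B15, VTN, IGFBP4, the glutamine synthetase GLUL and the mitochondrial transfer RNA gene MT-TY. These names were ranked by that SD, so their steadiness is the ranking itself. It holds for unscaled FPKM only: after 75th percentile scaling ALB was at 0.21 and APOE at 0.25, against a median of 0.23 over all genes. FGA and HP, also plasma proteins, had an SD of 0.63 and 1.65 unscaled. At the other end 181 of the 7015 genes (2.58%) had an SD of 1 or more.

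The most variable entries were mostly switched between 0 and a high value, rather than graded. SCARNA2, a guide RNA of Cajal bodies, was listed at 0, 236, 0, 231 and 0 FPKM. RPL17-C18orf32, a readthrough name, was at 0.299 and 41.5 FPKM in replicates 1 and 2 and at 0 in the others. MT-CO2 was at 0, 196, 134, 112 and 0 FPKM, MT-CO3 at 381, 8.12, 285, 290 and 0, and MT-RNR1 at 86.9, 88.5, 0, 9.32 and 372. Mitochondrial genes that every cell uses were also listed at 0, namely MT-ND3 and MT-ND6 in all 5 libraries, so a 0 in this table cannot be read as absence. FP236383.3, CES1P1, NEAT1_3, MTCO1P12 and MT-ND4 completed the 10 most variable names.

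Part of this variation was lost when transcripts without a gene name were counted with their gene. Of 35782 transcripts without a gene name 17264 were assembled in the locus of a named gene and overlapped its span. When their FPKM were added to that gene, 112 of the 181 most variable genes fell below an SD of 1 and 68 of them below 0.5. KRT18, a keratin of all simple epithelia, was at 56.4, 83.4, 5.22, 2.33 and 3.44 FPKM by name and at 174, 126, 89.7, 91.1 and 45.3 FPKM with the unnamed transcripts. C3, the central complement protein, was at 127 FPKM by name in replicate 1 against 603 to 1238 in the others, and at 1258 FPKM in replicate 1 with them. F2, prothrombin, averaged 2.13 FPKM by name and was at 36.5 to 57.1 FPKM with them. The marker genes ALB, KRT19, CYP3A4 and EPCAM held almost no unnamed transcripts and kept their levels. TDO2, C8A, ACTA2 and C3 behaved like KRT18 in at least 1 library, and low values by name for such genes are uncertain. F2, TDO2, C8A and ACTA2 were picked for description after their values were seen.

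**Figure D3:**
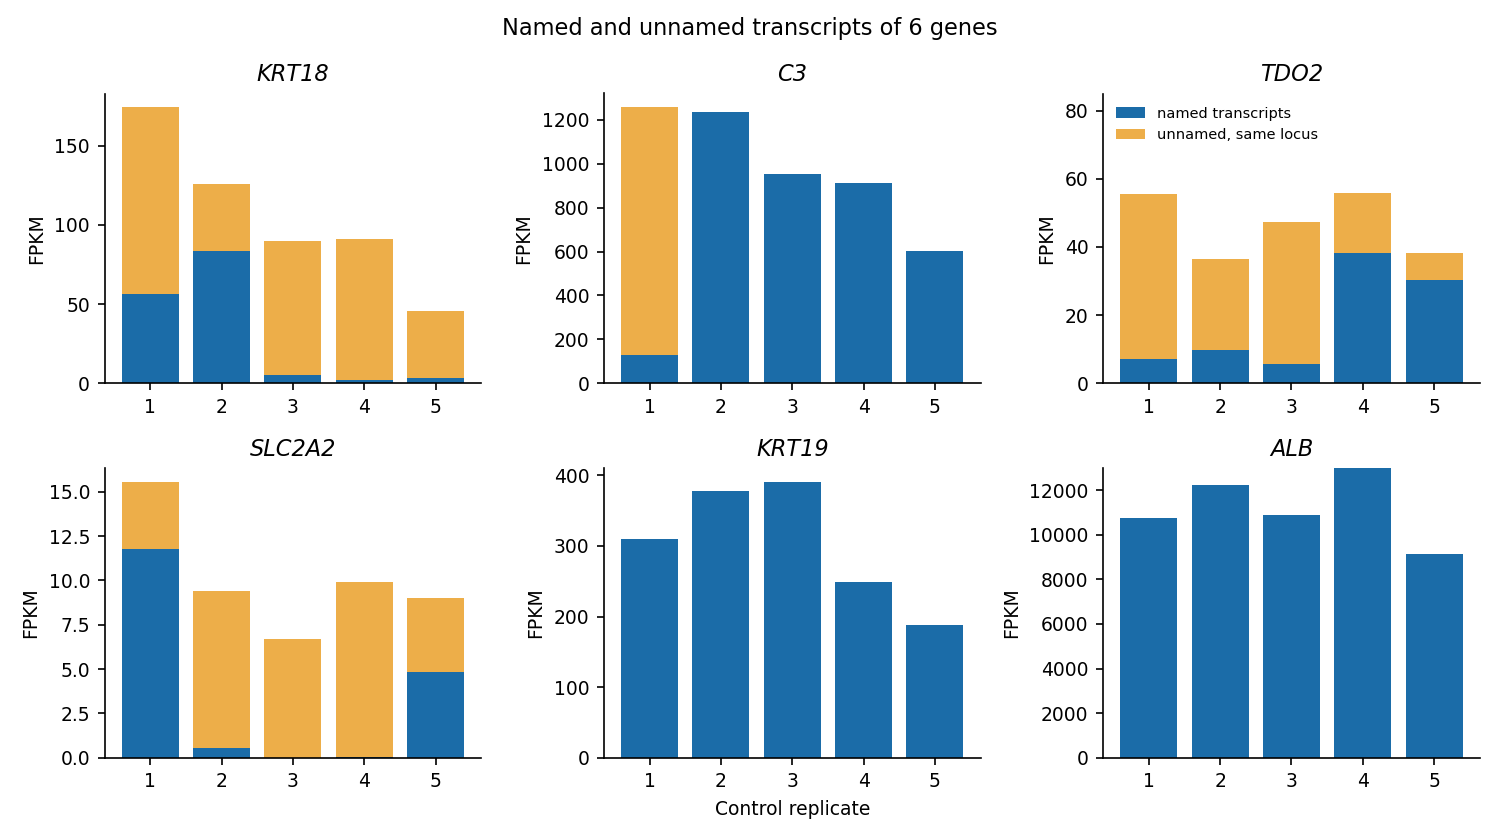
FPKM of named transcripts (lower bar) and of unnamed transcripts over the same gene (upper bar) in control replicates 1 to 5 for 6 genes. Named KRT18 ranges from 2.33 to 83.4 FPKM, and with the unnamed part the range is 45.3 to 174 FPKM.

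One control library held high levels of acute phase and immediate early genes. Acute phase proteins are plasma proteins that the hepatocyte makes in quantity under inflammatory cytokines, and immediate early genes encode factors that switch on within minutes of a stimulus. CRP, C-reactive protein, was at 120 FPKM in replicate 1 and at 11.7, 10.2, 15.4 and 9.30 FPKM in replicates 2 to 5, which is 11 times the median of the other 4. SAA1 was at 106, 10.8, 19.2, 12 and 8.79 FPKM and LCN2 at 139, 21.8, 15.8, 15.9 and 8.26 FPKM. ORM1, orosomucoid, was at 1361, 400.1, 423, 562 and 238 FPKM. For each of these genes replicate 1 lay above all 4 other control libraries with no overlap. HP, haptoglobin, was at 2090, 188, 209, 1010 and 173 FPKM, so replicate 4 was high as well. The near-identical pairs SAA1 and SAA2, HP and HPR, and ORM1 and ORM2 can share fragments, and their single levels are uncertain.

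Some immediate early factors were high in replicate 1 as well. FOS was at 31.9, 6.85, 4.75, 6.07 and 4.48 FPKM, EGR1 at 77.3, 25.7, 19.6, 23.6 and 15, and JUNB at 59.8, 24.7, 23.9, 22.2 and 15.2. CXCL8, interleukin 8, was at 33.4 FPKM in replicate 1 and 5.47 to 9.09 in the others, and SOCS3, the feedback inhibitor of cytokine signalling, at 27.4 and 4.11 to 8.05. After 75th percentile scaling 9 of the 11 acute phase genes with a mean of 1 FPKM or more were highest in replicate 1, against 28.7% of all 12730 genes. Of the 10 immediate early and stress genes at that level 5 were highest in replicate 1 and 5 were not, among them the heat shock gene HSPA1A. CRP, SAA1, SAA2, FOS, JUNB, CXCL8 and SOCS3 were chosen for description after their values were seen.

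The promoters of CRP, LCN2, ORM1 and EGR1 are shown because these genes were high together in replicate 1. Each runs from 250 bases before to 50 bases after the RefSeq start (GRCh38.p14), and capitals mark matches on either strand to TTNNGNAA (C/EBP), GGGA, any 4 bases and CC (NF-kappaB), TTCNNNGAA (STAT), CC, any 6 of A or T, and GG (the CArG box bound by SRF) and TATAAA (the TATA box). CRP lies at chr1:159714540-159714839 on the minus strand, and on the plus strand lie LCN2 at chr9:128149203-128149502, ORM1 at chr9:114322848-114323147 and EGR1 at chr5:138465229-138465528.
CRP: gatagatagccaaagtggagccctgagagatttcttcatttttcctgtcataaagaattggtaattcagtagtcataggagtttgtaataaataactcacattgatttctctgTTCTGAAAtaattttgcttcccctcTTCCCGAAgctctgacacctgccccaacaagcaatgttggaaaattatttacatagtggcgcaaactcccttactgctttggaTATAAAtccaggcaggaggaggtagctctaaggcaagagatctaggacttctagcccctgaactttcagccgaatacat
LCN2: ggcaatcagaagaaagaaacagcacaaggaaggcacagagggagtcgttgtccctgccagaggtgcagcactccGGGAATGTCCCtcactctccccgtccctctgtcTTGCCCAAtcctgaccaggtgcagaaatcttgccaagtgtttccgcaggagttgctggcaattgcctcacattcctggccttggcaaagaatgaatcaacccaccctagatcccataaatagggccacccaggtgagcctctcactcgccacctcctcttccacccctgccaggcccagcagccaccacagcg
ORM1: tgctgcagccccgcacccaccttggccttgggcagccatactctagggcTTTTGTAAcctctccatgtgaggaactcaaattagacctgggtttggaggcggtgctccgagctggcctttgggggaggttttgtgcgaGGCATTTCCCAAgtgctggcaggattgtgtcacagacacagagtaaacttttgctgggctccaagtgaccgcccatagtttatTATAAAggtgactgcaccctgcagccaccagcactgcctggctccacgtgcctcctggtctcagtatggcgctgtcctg
EGR1: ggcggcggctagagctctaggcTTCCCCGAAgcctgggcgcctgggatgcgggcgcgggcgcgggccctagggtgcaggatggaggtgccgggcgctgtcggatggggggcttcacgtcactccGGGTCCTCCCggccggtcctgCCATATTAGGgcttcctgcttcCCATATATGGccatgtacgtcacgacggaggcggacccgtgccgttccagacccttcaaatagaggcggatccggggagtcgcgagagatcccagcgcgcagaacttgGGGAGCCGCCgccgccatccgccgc
The C/EBP letters occur 2 times in CRP, 1 time in LCN2 and 2 times in ORM1. The NF-kappaB letters occur 2 times in LCN2, as overlapping matches on opposite strands, 1 time in ORM1, overlapping a C/EBP match, and 2 times in EGR1. EGR1 also holds 1 STAT match and 2 CArG matches, and CRP and ORM1 a TATA box at position -29 from the start. Of all 35116 promoters 36.8% hold the C/EBP letters, 25.6% the NF-kappaB letters, 11.5% a TATA box, 7.66% the STAT letters and 1.29% the CArG letters. The matches describe these windows and were not tied to the levels in replicate 1.

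The library numbered 1 showed most of these genes high too at 100 pM and 10 nM, and some of them at 1 µM. CRP was at 71.4 FPKM in replicate 1 at 100 pM against 12.5 to 25.4 in the other 4, and at 35.5 against 5.34 to 21.4 at 10 nM. EGR1 was at 61.9 FPKM against 19.1 to 27.3 at 100 pM and at 61.6 against 11.3 to 22.6 at 10 nM. At 1 µM replicate 1 was the lowest library for CRP, at 4.82 FPKM against 5.62 to 8.38, and only just the highest for EGR1, at 22.8 against 11.8 to 21.6. It was also highest for SAA1, at 41.1 FPKM against 15.9 to 29.7, and for SAA2, FOS, JUNB and SOCS3. It was lowest for LCN2, at 2.80 FPKM against 6.79 to 10.6, and for CXCL8 and SERPINA3. ORM1 and HP in that library lay within the range of the others. These values are unscaled. The 75th percentile of genes above 0 was 2.93 FPKM in that library against 3.62 to 4.71 in the other 4 at 1 µM. Its rank for these genes can therefore change with scaling. The first libraries of the 4 groups carry consecutive library numbers in their titles, the labels name no batch, and the part of any shared handling was not tested.

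**Figure D4:**
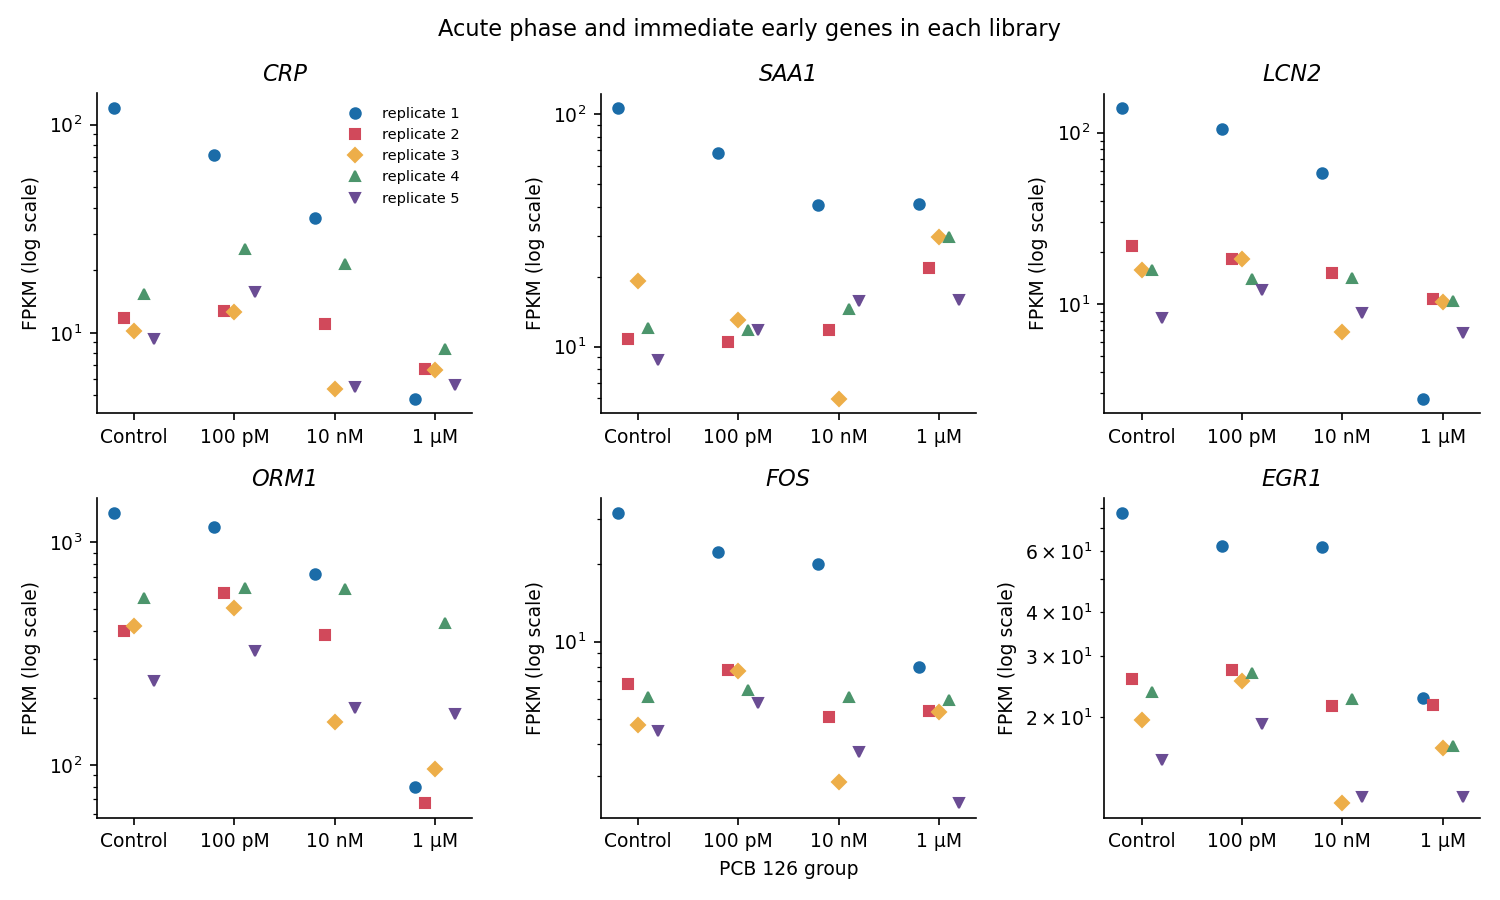
FPKM on a log scale of acute phase and immediate early genes in each library of the 4 groups, with 1 symbol per replicate. Replicate 1 lies above the other control libraries in each panel, with CRP at 120 against 9.30 to 15.4 FPKM. At 1 µM it lies below the others for CRP and LCN2 and above them for SAA1, FOS and EGR1.

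The control libraries were then set against the exposed groups, to ask which cell identity genes differ from baseline. limma was fitted to log2(FPKM + 1) of 9755 genes in the 20 libraries of the table, with Benjamini-Hochberg adjustment and a threshold of 0.05, and the 3 comparisons share the control libraries. At 100 pM no gene was called (0% of those tested), with 116 genes at an unadjusted p under 0.05. At 10 nM 20 genes (0.205%) were called, 14 higher (0.144%) and 6 lower (0.0615%). At 1 µM 182 genes (1.87%) were called, 63 higher (0.646%) and 119 lower (1.22%) than control. This balance rested on replicate 1 at 1 µM: without that library 88 genes were higher and 79 lower. Without the first library of each group 79 were higher and 51 lower. Without control replicate 1 alone 65 were higher and 85 lower. Of 67 hepatocyte genes 60 passed the variance filter and entered the fit. At 1 µM 14 of the 60 were lower and 2 higher, and the median log2 fold change of the 60 was -0.78 against -0.26 for all genes tested. With 75th percentile scaling these medians were -0.66 and -0.12. At 10 nM the same 2 higher genes, CYP1A2 and TAT, were called and no other of the 60. Some exposed libraries also held much ribosomal RNA. At 1 µM its loci held 16.7% of FPKM in replicate 1 and 11.8% in replicate 5. At 10 nM they held 23.6% in replicate 3 and 11.2% in replicate 5. The other libraries at these doses held 4.33% to 6.14%, and control replicate 5 held 15.2%. What part of the lower medians and calls came from the composition of the exposed libraries was not tested.

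CYP1A2, the P450 enzyme induced through the aryl hydrocarbon receptor, was at 1.12, 1.73, 1.32, 0.497 and 0.246 FPKM in the control libraries. It was at 78.2 to 398 FPKM at 10 nM (log2 fold change 6.73, SE 0.76) and at 47.1 to 260 FPKM at 1 µM (6.16, SE 0.76). At 100 pM the 5 libraries read 15.9, 11.6, 1.98, 1.85 and 208 FPKM, all above the highest control value, with replicate 5 in the range of the higher doses. Whether that library carries the right label was not tested. TAT, at 0.466 to 0.877 FPKM in control, was at 2.20 to 5.74 FPKM at 1 µM (1.48, SE 0.29). Both genes entered the fit through the exposed libraries, so the filter fixed that they differ, and their values are a description that adds nothing to the count. At 10 nM TAT was called under 7 of 20 alternative settings.

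APOA2 had the largest decrease among the hepatocyte genes called. It was at 20.8 to 43.6 FPKM in the control libraries and at 0.948, 4.12, 3.22, 3.80 and 3.38 FPKM at 1 µM (log2 fold change -3.20, SE 0.42, adjusted p = 4.42e-05, limma), with no overlap. HPX, the heme carrier hemopexin, was at 158 to 327 FPKM in control and 59.4 to 110 at 1 µM (-1.65, SE 0.30, adjusted p = 0.00273). The other secreted proteins called were AHSG (-1.84), TTR (-1.62) and FGB (-1.37). Enzymes called lower included CYP2C8 (-1.70), ADH1B (-1.58), BAAT (-1.26) and the urea cycle gene CPS1 (-1.16). The uptake carrier SLCO1B1 (-1.74), the pioneer factor FOXA1 (-1.21) and the bile acid receptor NR1H4 (-1.19) were also called. APOA2 and HPX kept their calls at 1 µM under all 20 alternative settings, whereas CPS1 and NR1H4 were called under 9 and BAAT under 8.

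The marker genes themselves did not pass the threshold. ALB was at 9144 to 12989 FPKM in control and 2922 to 8721 FPKM at 1 µM (-1.08, SE 0.30, adjusted p = 0.056, limma), and the groups did not overlap. KRT19 was at 189 to 391 FPKM in control and 97.9 to 197 FPKM at 1 µM, so the groups overlapped (-0.87, SE 0.32, adjusted p = 0.203). APOA1 (-0.43) and CYP3A4 (0.39) did not pass either. This main fit did not use the sets of consecutive library numbers, each with 1 library of each group. In each set KRT19 was lower at 1 µM than in control, and a fit with the sets as a block is given below. EPCAM was listed at 0 in all libraries at 10 nM and 1 µM. No biliary gene of the 15 tested was called by limma at any dose in the main fit. At 1 µM 9 of the 15 had an unadjusted p under 0.05, beside 13.6% of all genes tested, 11 were lower and 4 higher, and the median was -0.65. With 75th percentile scaling 6 biliary genes were called, so the count of 0 does not show that they kept their level.

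**Figure D5:**
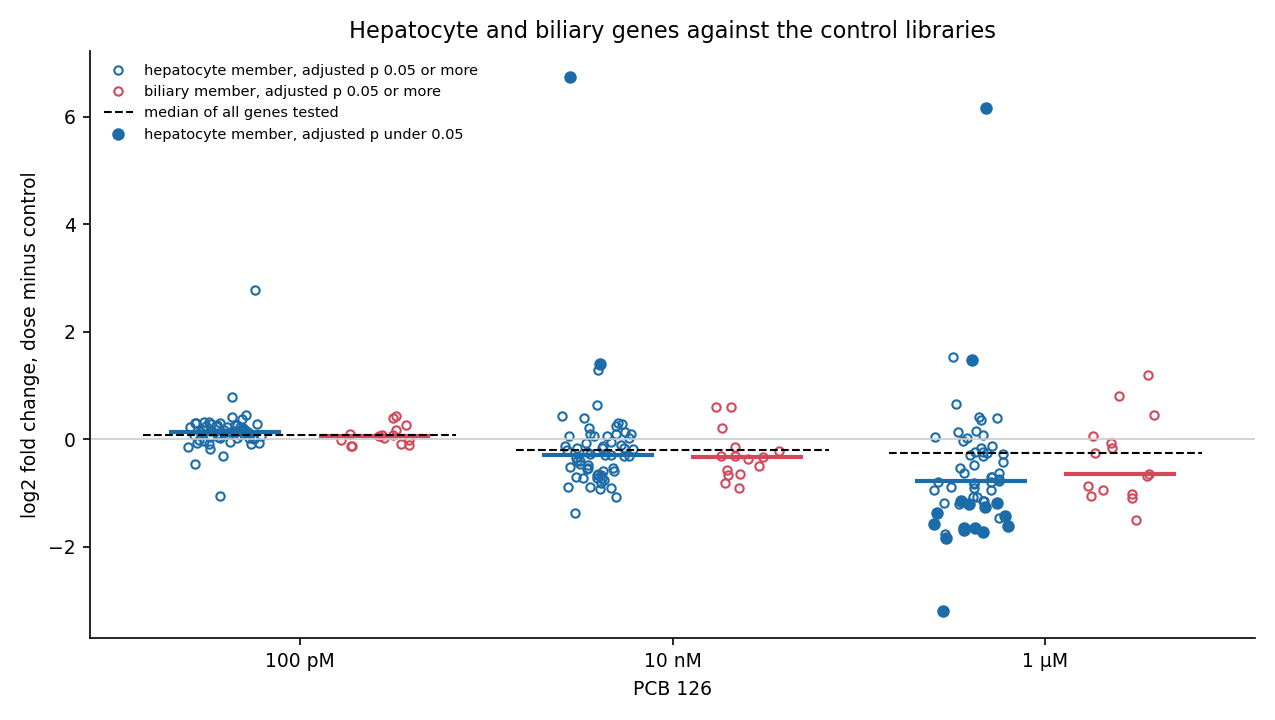
Log2 fold change of hepatocyte and biliary genes, PCB 126 dose minus control, at each dose, with filled points for genes at an adjusted p under 0.05 (limma) and dashed lines for the median of all genes tested. At 1 µM the hepatocyte median is -0.78 and the biliary median -0.65 against -0.26 for all genes, and CYP1A2 lies far above at 6.16.

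The count of hepatocyte genes called at 1 µM rested on single libraries. It was 10 without control replicate 2, without control replicate 4 or without replicate 1 at 1 µM, and 19 without control replicate 5. Without control replicate 5 there were 366 calls at 1 µM in place of 182, of which 312 were lower and 54 higher, and 3 biliary genes were called.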

How the data were processed

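From 20 ng of total RNA, strand-specific libraries were prepared after removal of ribosomal RNA. Per the labels and the study's methods, the authors used HISAT2 to map reads to GRCh38 and StringTie to assemble transcripts, and deposited 1 FPKM value per transcript and library. Tool versions were not given in the sources used here. Some deposited columns held a few values just below 0 and were entered as score for that reason; these 4 values were set to 0. FPKM is relative to all mapped fragments of a library, so it was compared with and without a further scaling of each library to the 75th percentile of its genes.

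FPKM were summed per gene name (56568 names from 234960 transcripts). In an alternative, transcripts without a name were added to the gene of the same assembled locus that they overlapped most, unless a second gene had at least 50% of that overlap. Expression was compared with limma 3.58.1 in R 4.3.3 on log2(FPKM + 1), over the 20 libraries in 4 groups without covariates, for 9755 genes with a variance of FPKM above 1. Fold changes on this scale understate the change of low genes. The fit was tested on simulated data. Other steps used Python 3.11.15. Promoter sequences were taken from RefSeq by symbol for ALB, CRP, LCN2, ORM1 and EGR1, and 7SL genes were compared in the GRCh38 genome.

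Genes were named by rule: the 5 markers, the 20 names and 20 coding names highest in control, in each list the 4 highest members and those at 0.1 FPKM or less in all 5 libraries, the 10 most and 10 least variable genes, and hepatocyte or biliary genes called at a dose. Other list members are given as values picked after they were seen. XIST and Y-linked genes were left out, and some results are not reported here. The members and lists were chosen with earlier results of these data known. Alternatives were another pseudocount (0.1), other filters, scalings and values per gene, the control and 1 dose only, each library left out, and the set of consecutive library numbers as a block.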

Additional observations from a re-analysis of the deposited data

Results flagged for a closer look

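The 5 control values of 184 genes and 7 measures of the libraries were each tested for a lowest or highest library far from the other 4 by Dixon's test at the 95% level. Of 191 sets of values 25 stood out, where chance gives about 1 in 20. Replicate 1 was far above the others in 12 genes. They were CRP at 120 FPKM, SAA1 at 106, SAA2 at 69.4, LCN2 at 139, ORM1 at 1361, the haptoglobin-related gene HPR at 69.7, the complement gene C9 at 1.69, FOS at 31.9, EGR1 at 77.3, JUNB at 59.8, CXCL8 at 33.4 and SOCS3 at 27.4. With unnamed transcripts added, HPR exceeded the next library by only 0.50 on the log2 scale. For CRP, SAA1, SAA2, LCN2, FOS, EGR1, CXCL8 and SOCS3 this excess was 1.55 to 2.62.

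Replicate 5 was far below the others in 6 genes, with CES1 at 558 FPKM, FTL at 2382, HNF4A at 12.7, HSPA5, a chaperone of the endoplasmic reticulum, at 76.8, IGFBP4 at 98.4 and LUM at 25.7. It was far above them in MT-RNR1 at 372 FPKM and in COL1A2, at 0.00516 FPKM where the other 4 were listed at 0. Replicate 2 was far above the others in CES1P1 at 70.7 FPKM, RPL17-C18orf32 at 41.5, PROC at 0.697, MT1G at 0.207 and EPCAM at 0.0401. For COL1A2 and EPCAM, with 4 values at 0, any value above 0 stands out by this test, so these 2 say nothing about the library. The genes with acute phase and immediate early roles were high in the same library, and several were picked for description because of it, so their number is not independent.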

How the results depend on the processing

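The share of the 10 highest genes, 42.2%, became 24.8% with structural and mitochondrial genes left out, 48.5% with the most abundant transcript per gene, 38.7% with unnamed transcripts added to their gene and 35.4% with them counted in the total. That of the 100 highest, 56.0%, became 38.4% with those genes left out, 61.6% with the most abundant transcript and 47.0% with unnamed transcripts in the total. Genes at 5 FPKM or more in all control libraries numbered 4497. The median SD was 0.23 with 75th percentile scaling and 0.23 to 0.45 with 1 control library left out, the lowest without replicate 5. The log2 ratio of hepatocyte to biliary sums stayed within its spread in all settings run. Scaling a whole library cannot change this ratio, so the scalings among these settings say nothing about it.

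Scaling moved the counts of calls most. With 75th percentile scaling 69 genes were called at 10 nM and 592 at 1 µM, with quantile normalization 184 and 1085 (532 higher and 553 lower), and with unnamed transcripts added 35 and 376. With 1 library left out the counts ranged from 15 to 35 at 10 nM, with 35 without replicate 3 and 32 without replicate 4 of that dose, and from 118 without control replicate 4 to 366 without control replicate 5 at 1 µM. Without the first library of each group 12 were called at 10 nM. At 1 µM 130 were then called, of which 79 were higher and 51 lower. Without replicate 1 at 1 µM 88 were higher and 79 lower. At 100 pM 0 genes were called under each setting. Hepatocyte calls at 1 µM, 16 as reported, fell to 4 with every gene above 0 tested, 9 with the most abundant transcript and 7 without the first libraries. They rose to 23 with 75th percentile scaling, 24 with quantile normalization, 24 with unnamed transcripts added and 22 with the block given below. With 1 library left out they were 10 to 19. Biliary calls were 6 with either scaling, 5 with unnamed transcripts added, 1 without the first libraries and 0 to 3 with 1 library left out. Unnamed transcripts and the first libraries were alternatives chosen after seeing the data. No named gene's fold change at a dose where it was called turned sign. At 100 pM the median over the genes tested went from 0.07 to -0.08 (log2) without control replicate 5. The cause of these shifts was not tested. The deposited FPKM carry no counts, so no counting interval is given for low genes.

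The labels give no replicate numbers, but the library numbers in the titles fall into 5 sets of 4 with 1 library of each group. With the set as a replicate block, an alternative chosen after seeing the data, 37 genes were called at 10 nM and 357 at 1 µM (83 higher and 274 lower), 3 of them biliary. At 1 µM ALB then passed in limma (adjusted p = 0.0144) and KRT19 did not (adjusted p = 0.0604). In the deviations from the group means, libraries of a set had a correlation of -0.06 to 0.17 (median 0.06, over 0.1 in 7 of 30 pairs). Libraries of different sets had -0.16 to 0.16 (median -0.02, over 0.1 in 4 of 120 pairs). Of 20 libraries 9 correlated best with one of their own set, although only 30 pairs lay within a set and 120 between sets. The main fit did not use the sets, and whether libraries of a set were handled together was not tested.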

Other observations

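Complement and coagulation genes, a further set of hepatocyte exports, were widely detected in the control libraries. CFB, which drives the alternative pathway, averaged 402 ± 166 FPKM (SD, n = 5). C4A and C4B averaged 202 and 192 FPKM, but they are near-identical copies and their single levels are uncertain. C5 and C6 averaged 52.5 ± 9.45 and 39.9 ± 10.4 FPKM, and C9 averaged 0.565. C8A was listed at 0 in all 5 libraries by name and was at 15, 6.91, 6.77, 12.2 and 6.19 FPKM with unnamed transcripts added. Among clotting factors PROS1, the cofactor protein S, averaged 43.0 ± 8.37 FPKM, SERPINC1, antithrombin, 27.5 ± 7.11, and F5 25.8 ± 4.89. F7 and PROC, the vitamin K dependent factor VII and protein C, averaged 0.667 and 0.330 FPKM.

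Metallothioneins, which bind zinc and copper, were led by MT2A at 32.5, 25.6, 19.8, 20.3 and 13.4 FPKM and by MT1E at 21.2, 16.7, 18.1, 15.4 and 6.75. Both were lowest in replicate 5, as most genes were. MT1H was listed at 0 in all 5 libraries and MT1G in 3 of them. HAMP, the iron hormone hepcidin, averaged 0.0409 FPKM, while TFRC and SLC40A1, the iron importer and exporter, averaged 46.3 ± 10.5 and 61.6 ± 18.1 FPKM (SD, n = 5). KRT8 and CLDN1, an epithelial keratin and a tight junction protein, averaged 241 ± 71.6 and 70.1 ± 15.4 FPKM.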
